A study of Enchytraeus albidus with 42 samples.

Results

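The 3 arrays of Enchytraeus albidus exposed to carbendazim at the reproduction EC90 were set against the 3 arrays of the acetone solvent control, 6 of the 42 arrays of the series, and the arrays were assigned by their titles. Enchytraeus albidus is a soil oligochaete, and carbendazim is a fungicide. An EC90 is the concentration that lowers the number of juveniles by 90%, which the methods give as 3 mg of carbendazim per kg of soil. The worms were adults with a developed clitellum, kept in soil for 2 days, and each array held labelled RNA from the whole bodies of the pooled worms of 1 vessel. The solvent control had acetone and no pesticide. For comparison the carbendazim EC10, EC20 and EC50 (0.05, 0.1 and 0.5 mg per kg), atrazine EC90 (50 mg per kg of this herbicide) and the water control, which had no acetone, were used with 3 arrays each. Because whole bodies were extracted, fewer cells of a type and less RNA per cell cannot be told apart.

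Carbendazim is a benzimidazole, a class that binds beta tubulin and hinders the growth of microtubules, the filaments that build the mitotic spindle, cilia and tracks for transport in the cell. Stathmin, which in mammals binds tubulin dimers and favours the disassembly of microtubules, and the tubulins themselves are therefore the transcripts closest to the known target. Intermediate filaments are a separate set of cytoskeletal fibres. Protein names are those of the closest database match that the study gives, and many sequences on the array have no name.

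The array measured 1035 transcripts, and levels are given as the log2 of the processed signal after scaling, so that a difference of 1 is a doubling. On the 6 arrays 75.4% to 90.2% of the transcripts were well above background and 2.80% to 5.12% were saturated. Of the 18 muscle transcripts chosen as tissue markers, 17 to 18 were well above background on each of the 6 arrays, and so were both hemoglobin transcripts. Of the chymotrypsinogen and lysozyme transcripts, taken as markers of gut and coelomic secretion, 0 to 1 of 2 were. The log2 of the summed signal of the muscle markers, in which bright members weigh most, was 17.56 to 17.75 in the controls and 17.54 to 17.61 at EC90. That of the gut and coelomic secretion markers was 2.88 to 3.39 in the controls and 3.66 to 4.67 at EC90, without overlap. Single transcripts were separated in this way in 29% of all tested. These 2 markers were dim, and neither was called. Their median change was 0.88, but -0.13 with normexp, another background correction. The part of these markers in the results was not tested. The control arrays lay on 3 slides. EC90 replicates 1 and 3 shared a slide with control replicate 1 and with the 3 EC50 arrays, and EC90 replicate 2 was on a slide with no other array. The EC90 arrays were scanned apart from the EC50 and control arrays of that slide, so that scan and treatment cannot be told apart within it.

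In limma 39 of 1035 transcripts (3.77%) were differentially expressed at carbendazim EC90, at a Benjamini-Hochberg adjusted p under 0.05, of which 20 (1.93%) were up- and 19 (1.84%) down-regulated. The up-regulated transcripts rose by 0.73 to 2.15 log2 and the down-regulated ones changed by -2.35 to -0.64. In each of the 39 the EC90 arrays were all on one side of the control arrays, a separation seen in 29% of all transcripts tested. No array was saturated for any of them, and 30 of the 39 were well above background on all 6 arrays. All of the 19 down-regulated transcripts were measured on at least 1 array of each group, whereas 6 of the 20 up-regulated ones were on no control array well above background. Under normexp background correction, another way to handle dim signals, 31 transcripts were called, 22 of them among the 39. The fit over all groups takes its spread also from 2 deviating arrays, dimethoate EC10 replicate 1 and dimethoate EC20 replicate 2, and without these 141 transcripts (13.6%) were called.

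**Figure D1:**
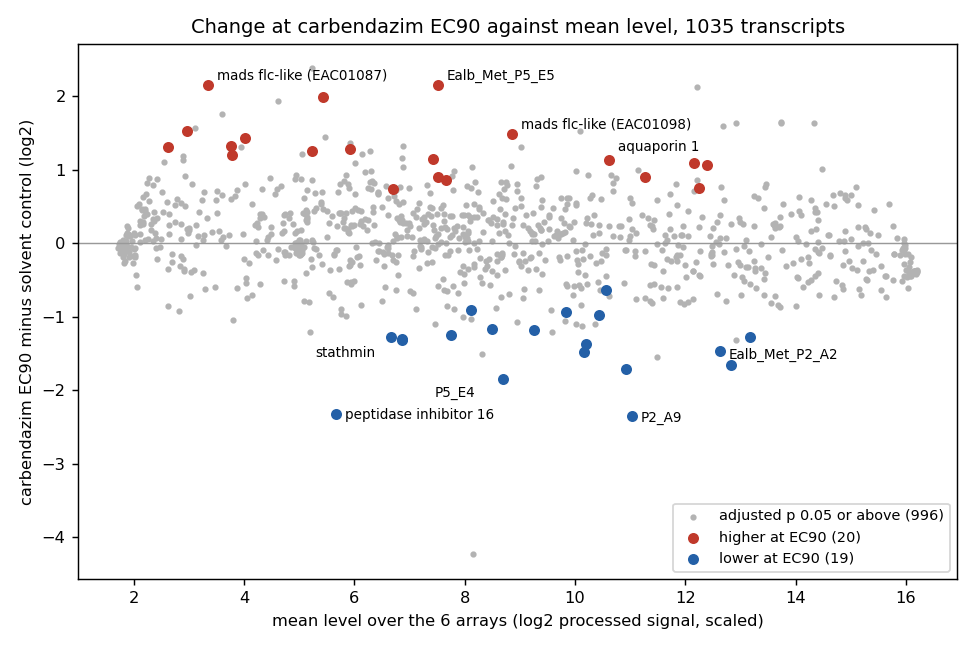
Each point is 1 of the 1035 transcripts, with its mean level over the 6 arrays on the x axis and its log2 change at carbendazim EC90 on the y axis. The 20 up-regulated transcripts (red) include 6 dim ones on the left, and the 19 down-regulated ones (blue) reach -2.35. The grey point near -4.23 is P2_F8_T7_1328946, which was not called and was chosen after its values were seen.

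Peptidase inhibitor 16 (EAC00257) and a sequence without a name, P2_A9_T7_1328949, had the strongest down-regulation of the 39. In mammals peptidase inhibitor 16 is a secreted protein of the CAP family. Its control arrays read 6.74, 6.51 and 7.20 log2 and its EC90 arrays 4.29, 4.65 and 4.54. The groups were thus far apart, and 1 of the EC90 arrays was not well above background. On average peptidase inhibitor 16 dropped by 2.32 log2, 5.01-fold, with a standard error of 0.43 (limma, adjusted p = 0.000989). P2_A9_T7_1328949, a brighter transcript, read 12.35, 12.11 and 12.14 in the controls and 9.75, 9.97 and 9.83 at EC90 and fell by 2.35 log2 (standard error 0.42, adjusted p = 0.000987), 5.1-fold. Both were called in 6 of 6 omissions of an array, with adjusted p up to 0.0113 for peptidase inhibitor 16 and 0.00899 for P2_A9_T7_1328949. With normexp the change of peptidase inhibitor 16 was -1.07 (adjusted p = 0.00645).

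Neither transcript was called at a lower concentration. For peptidase inhibitor 16 the change from the solvent control was 0.06 at EC10, 0.06 at EC20 and 0.21 at EC50, and its EC50 arrays ran from 6.90 to 7.18. The same changes of P2_A9_T7_1328949 were -0.06, 0.16 and 0.19. Against EC50 the EC90 level of peptidase inhibitor 16 differed by -2.54 log2 (adjusted p = 0.000476), and that of P2_A9_T7_1328949 by -2.54 (adjusted p = 0.000476). Within the slide that held both concentrations these differences were -2.62 (adjusted p = 0.00563) and -2.60 (adjusted p = 0.00563), from the same EC50 arrays and EC90 replicates 1 and 3. In both, all 3 EC90 arrays lay below every array of the water control, the solvent control, the lower carbendazim concentrations and atrazine EC90.

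**Figure D2:**
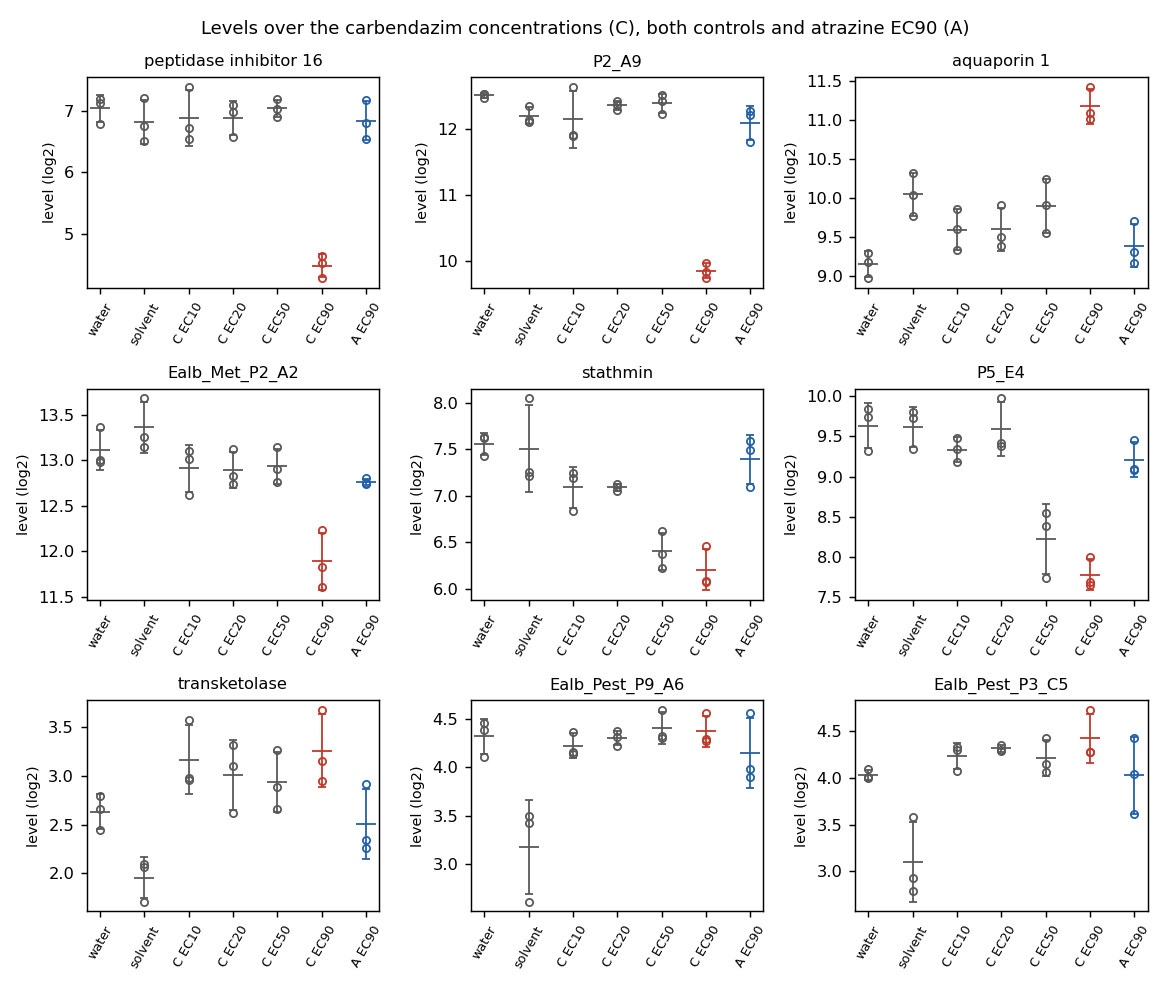
Levels of 9 transcripts (log2 processed signal, scaled) in 7 groups, with a circle per array and a bar for the mean and SD of 3 arrays; C is carbendazim and A is atrazine. In the upper row and in Ealb_Met_P2_A2 the EC90 arrays stand apart from EC50, and stathmin and P5_E4 are low at EC50 already. In the lower row the solvent control is the low group and is not well above background. There the water control is well above background in Ealb_Pest_P9_A6 and Ealb_Pest_P3_C5, but not in transketolase.

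Both were among 8 transcripts (0.773% of those tested) that differed in limma from the solvent control, from EC50, from the mean of the 3 lower concentrations and from atrazine EC90. The 4 comparisons share the EC90 arrays, so they are not separate evidence. Of the 8, 4 were up- and 4 down-regulated, and all 8 also differed from EC50 within the shared slide. The 8 had been picked for differing from EC50 already. Within the shared slide 21 of 1035 transcripts differed from EC50 in limma. That comparison uses the same EC50 arrays and EC90 replicates 1 and 3 again, so it is no separate evidence either. Aquaporin 1 (EAC00867), a water channel of cell membranes, read 9.77, 10.32 and 10.04 in the controls and 11.01, 11.09 and 11.43 at EC90. All EC90 arrays were above all controls, and it rose by 1.13 log2 (standard error 0.26, adjusted p = 0.00791), 2.19-fold. At EC10, EC20 and EC50 its changes were -0.45, -0.45 and -0.15, none of them called. The rise over EC50 was 1.28 (adjusted p = 0.00354), and over the water control 2.03 (adjusted p = 5.18e-06).

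A transcript named calcium-dependent protein kinase (EAC00697) read 10.09, 10.76 and 10.03 in the controls and 9.49, 9.37 and 9.22 at EC90. The second control array was the highest of the 6, and the groups did not overlap. It fell by 0.94 log2 (standard error 0.21, adjusted p = 0.00791), and its changes at the lower concentrations lay between -0.07 and 0.04. Ealb_Met_P2_A2_SP6_2090242, without a name, had the smallest adjusted p of the 39. Its arrays read 13.68, 13.25 and 13.15 in the controls and 11.83, 12.23 and 11.61 at EC90, and it fell by 1.47 log2 (standard error 0.21, adjusted p = 8.41e-05), 2.77-fold. It was at -0.46, -0.47 and -0.43 at the lower concentrations, where it was not called. The other 3 of the 8 were up-regulated sequences without a name, Contig107 by 1.52 log2, Ealb_Pest_P2_D8_T7_2175107 by 1.06 and P3_D4_SP6_1371437 by 0.90, of which Ealb_Pest_P2_D8_T7_2175107 and P3_D4_SP6_1371437 were chosen after their values were seen. Contig107 was well above background on 0 control arrays and 1 EC90 array, and with normexp its change was -0.08. No fold is given for it, because its mean EC90 signal was not above the lowest measurable signal of the control arrays.

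Stathmin (EAC00992) was the only one of the 6 microtubule transcripts that was called. Its controls read 7.26, 7.22 and 8.05 and its EC90 arrays 6.09, 6.07 and 6.46, so that the groups did not overlap and the third control was the highest array. Stathmin fell by 1.30 log2 (standard error 0.24, adjusted p = 0.000989), 2.46-fold, and it was called in 6 of 6 omissions of an array. The fall was not restricted to the highest concentration. Stathmin changed by -1.10 at EC50, which was called (adjusted p = 0.0246), and the changes at EC10 and EC20, -0.41 and -0.42, were not. The call at EC50 was lost without control replicate 3 (-0.83, adjusted p = 0.165), EC50 replicate 2 (-1.09, adjusted p = 0.221) or EC50 replicate 3 (-1.01, adjusted p = 0.171), omissions chosen after seeing the data. Between EC90 and EC50 the difference was -0.20 log2 (95% interval -0.69 to 0.30, adjusted p = 0.977), and between EC90 and the mean of the lower concentrations it was -0.66 (adjusted p = 0.0352). In the 3 arrays of atrazine EC90 stathmin ran from 7.09 to 7.59, above all carbendazim EC90 arrays.

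A transcript named mads flc-like protein 2 (EAC01006) had nearly the same values as stathmin on each array. Its controls read 7.31, 7.19 and 8.05 and its EC90 arrays 6.09, 6.11 and 6.40, with a fall by 1.32 log2 (standard error 0.24, adjusted p = 0.000987). Its changes were -0.40 at EC10, -0.41 at EC20 and -1.10 at EC50. Whether the probes of EAC01006 and stathmin read the same RNA was not tested, so they may count as 1 result. P5_E4_T7_1329817, without a name, was also low at EC50 already. It read 9.73, 9.80 and 9.34 in the controls and 7.69, 8.00 and 7.65 at EC90, and fell by 1.84 log2 (standard error 0.30, adjusted p = 0.000321), 3.59-fold. Its change was -1.40 at EC50 (adjusted p = 0.0246) but -0.29 at EC10 and -0.03 at EC20. At EC50 it was called without control replicate 3 or EC50 replicate 1 and not in the other omissions, where adjusted p reached 0.382 without EC50 replicate 2.

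The other 5 microtubule transcripts had changes above 0 and none was called, so the list had 0 up- and 1 down-regulated member of 6. Over all 6 members, stathmin included, the median change was 0.48, beside 0.03 over all transcripts and 0.13 over the 225 with a name. It was 0.47 at EC10, 0.44 at EC20 and 0.47 at EC50, all against the same control arrays. Against the mean of the lower concentrations the median at EC90 was 0.04, and against the water control 0.21, with 3 of 6 members above 0. Beta tubulin (EAC00377) read 9.76, 10.21 and 10.60 in the controls and 10.96, 11.13 and 11.25 at EC90, without overlap, a difference of 0.92 log2 (95% interval 0.29 to 1.55, adjusted p = 0.0859). Against the water control it was 1.01 higher, which was called (adjusted p = 0.0348). Tubulin alpha chain (EAC00175) read 8.28, 8.21 and 8.43 in the controls and 9.65, 9.94 and 8.47 at EC90. In the third EC90 array it was thus near the controls, and the difference was 1.05 (95% interval 0.22 to 1.87, adjusted p = 0.152). Tubulin beta-2b chain-like (EAC00485) differed by 0.34 (adjusted p = 0.546), and by -0.23 from the water control. For gl12416-like (EAC00354), placed in the list with earlier results known and with no role given in the study, the difference was 0.63 (adjusted p = 0.284). Tektin 2 (EAC01050), a protein of ciliary microtubules, was well above background on 0 of the 6 arrays. Without the 2 deviating dimethoate arrays beta tubulin (adjusted p = 0.00704) and gl12416-like (adjusted p = 0.00979) were called as well, so that 2 members were up- and 1 down-regulated. In that setting 13.6% of all transcripts were called.

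**Figure D3:**
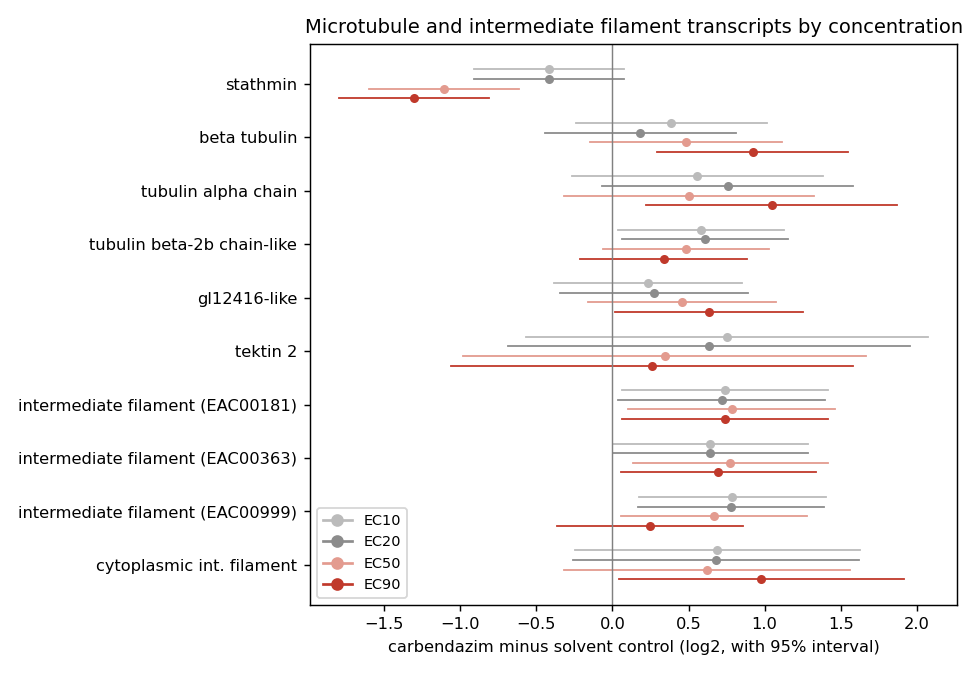
Log2 changes from the solvent control, with their 95% intervals from the limma fit, for 6 microtubule and 4 intermediate filament transcripts at the 4 carbendazim concentrations. The stathmin intervals lie below 0 at EC50 and EC90, and 3 of the 4 intermediate filament transcripts have similar changes at all concentrations, with EAC00999 nearer 0 at EC90; the intervals are not adjusted for the 1035 transcripts tested.

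None of the 4 intermediate filament transcripts was called at EC90. Their changes were 0.74 for EAC00181, 0.69 for EAC00363, 0.25 for EAC00999 and 0.98 for EAC00371, with adjusted p between 0.244 and 0.751. Without the 2 deviating dimethoate arrays 3 of the 4 were called, EAC00181 (adjusted p = 0.0134), EAC00363 (adjusted p = 0.0201) and EAC00371 (adjusted p = 0.00047). In that setting 13.6% of all transcripts were called. The control arrays of EAC00181 read 6.21, 5.47 and 6.12 and its EC90 arrays 6.73, 6.72 and 6.55, so the second control was the lowest array. The median change of the list was 0.72 at EC90, beside 0.71 at EC10, 0.70 at EC20 and 0.72 at EC50, all against the same control arrays. Against the water control the median at EC90 was 0.07. EAC00999 was well above background on 1 of the 6 arrays.

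**Figure D4:**
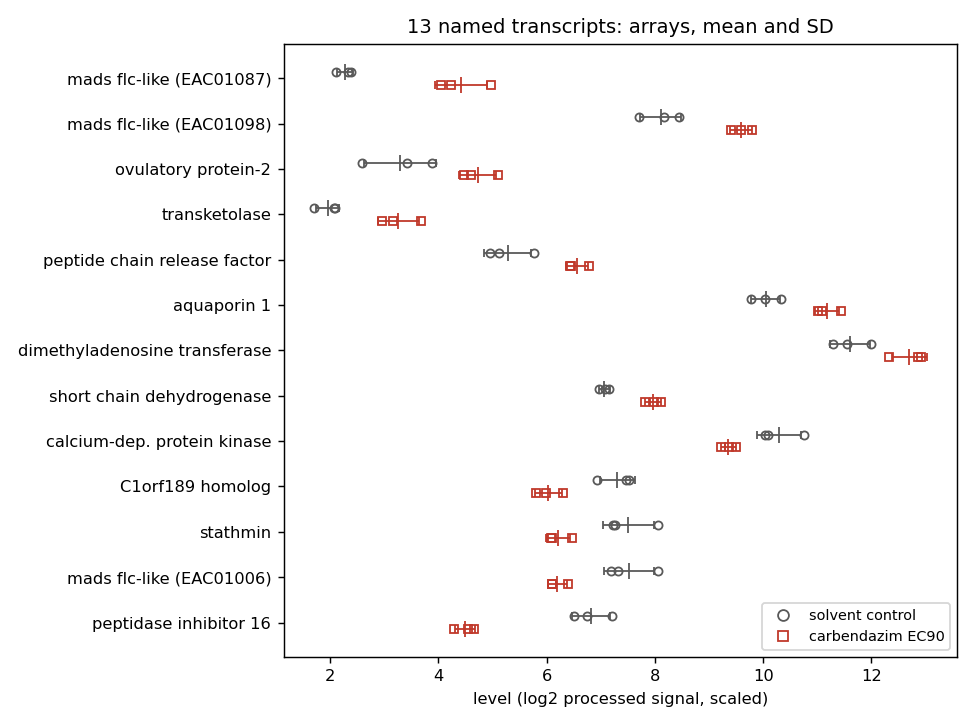
Levels (log2 processed signal, scaled) of the 13 named differentially expressed transcripts in the 3 solvent control (circles) and 3 carbendazim EC90 arrays (squares), with the mean and SD of each group. In each transcript the groups do not overlap, and the controls of ovulatory protein-2 precursor, transketolase and EAC01087 are not well above background.

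Of the 39 transcripts 13 had a name, 8 up- and 5 down-regulated. In the synthesis of RNA and protein, dimethyladenosine transferase (EAC00950), which methylates ribosomal RNA, and eukaryotic peptide chain release factor subunit 1 (EAC00826), which reads stop codons, were up-regulated. Dimethyladenosine transferase read 11.54, 11.28 and 12.00 in the controls and 12.85, 12.92 and 12.33 at EC90, and rose by 1.09 log2 (standard error 0.30, adjusted p = 0.0276). The release factor read 5.12, 4.95 and 5.78 in the controls and 6.44, 6.46 and 6.79 at EC90, and rose by 1.28 (standard error 0.31, adjusted p = 0.0159). At EC50 their changes were 0.20 and 0.23, and neither was called at a lower concentration. Of the 24 transcripts listed under translation the release factor was the only one called, beside 3.77% of all transcripts and 5.78% of the 225 with a name. The list's median change was 0.10. Without the deviating arrays 1 of the 24 was up- and 4 were down-regulated, beside 13.6% of all transcripts called in that setting.

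A short chain dehydrogenase (EAC01022), one of a large family of oxidoreductases, read 6.97, 7.15 and 7.08 in the controls and 7.82, 8.11 and 7.99 at EC90, a tight and complete separation. It rose by 0.90 log2 (standard error 0.26, adjusted p = 0.0434), but it was called in 0 of 6 omissions of an array, with adjusted p up to 0.16. The homolog of the mouse protein C1orf189 (EAC00580), an uncharacterized protein, read 7.46, 6.93 and 7.53 in the controls and 5.81, 6.29 and 5.98 at EC90. It fell by 1.28 (standard error 0.35, adjusted p = 0.0286), with -0.54 at EC50 and 0.26 at EC20. Ovulatory protein-2 precursor (EAC00513) was well above background on 0 control arrays and 2 EC90 arrays, with a change of 1.43 log2 (adjusted p = 0.0306). In processed signal it was at least 1.57-fold higher at EC90, with the controls set at the lowest measurable signal of each array or at their own, whichever is higher. It was called in 1 of 6 omissions. Under normexp it differed by 0.06 (adjusted p = 0.807), below that fold. The other transcript listed with reproduction, accessory gland protein, changed the other way, by -0.59 log2, and was not called. Without the deviating arrays it was called as down-regulated, where 13.6% of all transcripts were called.

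Of 14 transcripts that carry the name mads flc-like protein 2, 2 were up- and 1, EAC01006, was down-regulated. Over all transcripts 1.93% were up- and 1.84% down-regulated, and 5.78% of the 225 with a name were called. The median change of the 14 was 0.09. EAC01098 read 8.17, 7.70 and 8.45 in the controls and 9.80, 9.59 and 9.40 at EC90, with a rise by 1.49 log2 (standard error 0.33, adjusted p = 0.00742), 2.8-fold. It changed by 0.47 at EC50, which was not called. EAC01087 was dim, with 2.38, 2.10 and 2.33 in the controls and 4.96, 4.23 and 4.05 at EC90, of which 0 and 1 arrays were well above background. Its change was 2.14 log2 (adjusted p = 0.000415), and in processed signal it was at least 1.27-fold higher at EC90. With normexp its change was 0.05 (adjusted p = 0.836), below that fold. It was called at EC50 as well (1.52, adjusted p = 0.0463), and its solvent control differed from the water control by -1.34 log2 (adjusted p = 0.0407).

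In 4 dim up-regulated transcripts, EAC01087 and transketolase among them, EC90 differed from the solvent control but did not pass the test against the water control or the lower concentrations. For EAC01087 the difference was 0.80 from the water control (adjusted p = 0.192) and 0.69 from the mean of the lower concentrations (adjusted p = 0.213). Transketolase (EAC00207), an enzyme of the pentose phosphate pathway, read 1.71, 2.07 and 2.09 in the solvent control and 2.95, 3.68 and 3.15 at EC90, a difference of 1.30 log2 (standard error 0.34, adjusted p = 0.0234). It was well above background on 0 control arrays and 1 EC90 array. Its mean EC90 signal was not above the lowest measurable signal at which the controls were set, so no fold is given. The differences at EC10, EC20 and EC50 were 1.21, 1.05 and 0.98, and from the water control to EC90 the difference was 0.63 (adjusted p = 0.296). Ealb_Pest_P3_C5_SP6_2091763 differed by 1.33 from the solvent control (adjusted p = 0.0234), by 0.39 from the water control and by 0.17 from the mean of the lower concentrations. For Ealb_Pest_P9_A6_SP6_2091027 the same values were 1.20 (adjusted p = 0.0495), 0.06 and 0.06. On their 3 solvent control arrays neither was well above background, and on 2 EC90 arrays each was. In processed signal they were at least 1.28-fold and 1.23-fold higher at EC90. With normexp the difference was -0.12 for transketolase, -0.02 for Ealb_Pest_P3_C5_SP6_2091763 and -0.04 for Ealb_Pest_P9_A6_SP6_2091027, the last 2 below those folds.

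Among the other sequences without a name, Ealb_Met_P5_E5_SP6_2090452 and Ealb_Met_P1_C3_SP6_2090161 had the highest changes. Ealb_Met_P5_E5_SP6_2090452 read 6.78, 5.36 and 7.18 in the controls and 7.72, 9.89 and 8.16 at EC90, so both groups were widely spread, and the difference was 2.15 log2 (standard error 0.56, adjusted p = 0.0234), with 1.83 at EC50. Ealb_Met_P1_C3_SP6_2090161 read 5.38, 4.11 and 3.80, with 1 array well above background, in the controls and 6.57, 6.36 and 6.34 at EC90. It rose by 1.99 (standard error 0.42, adjusted p = 0.00412), and its change at EC50 was -0.10. Neither passed the test against the water control, with 1.17 for Ealb_Met_P5_E5_SP6_2090452 (adjusted p = 0.24) and 1.04 for Ealb_Met_P1_C3_SP6_2090161 (adjusted p = 0.135). Against the mean of the lower concentrations the differences were 0.82 (adjusted p = 0.436) and 1.60 (adjusted p = 0.00233). Ealb_Met_P6_D6_SP6_2090551 rose by 1.26 (adjusted p = 0.0234) and its change at EC50 was -0.31. It was called in 2 of 6 omissions, and the difference was 0.28 with normexp (adjusted p = 0.196) and 0.56 from the water control (adjusted p = 0.358).

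Down-regulated sequences without a name included 2 in which a single array stood out. Ealb_Met_P9_D12_SP6_2090774 read 12.20, 11.97 and 11.19 in the controls and 11.04, 10.30 and 8.90 at EC90, and Contig25 read 13.44, 14.34 and 13.16 and 12.64, 12.38 and 10.95. In both the third EC90 array was the lowest by more than 1 log2. They fell by 1.71 (standard error 0.43, adjusted p = 0.02) and 1.66 (standard error 0.43, adjusted p = 0.0234). Without EC90 replicate 3 the adjusted p was 0.19 and 0.198. P4_5E_T7_1329752 read 11.39, 10.31 and 11.03 in the controls and 9.54, 9.39 and 9.34 at EC90. It fell by 1.49 (standard error 0.39, adjusted p = 0.0234), while its changes at EC10, EC20 and EC50 were 0.17, 0.04 and 0.34. Against EC50 it differed by -1.83 (adjusted p = 0.0055). It was called in 1 of 6 omissions and was not called with normexp (-1.21, adjusted p = 0.074).

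None of the 8 chaperones was called, and their median change was -0.01. Heat shock protein 90 (EAC00488) read 5.01, 3.69 and 4.59 in the controls and 5.57, 5.84 and 5.54 at EC90, a difference of 1.22 log2 (95% interval 0.46 to 1.97, adjusted p = 0.0548). Without the 2 deviating dimethoate arrays it was called (adjusted p = 0.00212). Its second control was the lowest array, and from the water control the difference was 0.40 (adjusted p = 0.648). Other transcripts that the study names for carbendazim were not called at an adjusted p under 0.05. The study itself used t-tests at p under 0.05, with no adjustment named. It also reports quantitative PCR of heat shock protein 90, the glucosidase, an intermediate filament transcript and stathmin, with directions like those of its arrays. The integrin-linked kinase-associated phosphatase (EAC00664) differed by -0.30 (adjusted p = 0.55), larval visceral protein d (EAC01019) by 0.18 (adjusted p = 0.76), and the glucan endo-beta-glucosidase (EAC00265) was well above background on 0 of the 6 arrays.

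Over the lists of muscle and actin (50 transcripts), respiratory chain and ATP synthase (21), DNA and cell cycle (7), defence and lectins (5), extracellular cysteine-rich proteins (5), protein turnover (3) and hemoglobin (2), 0 members were called. Without the deviating arrays 9 were called in muscle and actin (5 up, 4 down) and 6 in respiratory chain and ATP synthase (2 up, 4 down). Extracellular cysteine-rich proteins and protein turnover then had 1 each. These were 18%, 28.6%, 20% and 33.3% of the lists, beside 13.6% of all transcripts in that setting. In the main fit the median changes were 0.21, -0.27, -0.06, -0.44, 0.53, 0.66 and 0.25, in the order in which the lists are first named. The median was 0.03 over all transcripts and 0.13 over the 225 with a name, from which the lists were drawn. Carbohydrate and amino acid metabolism had 1 of 9 called, transketolase, and peptidases and inhibitors 1 of 4, peptidase inhibitor 16. Of all transcripts 3.77% were called, and of the 225 with a name 5.78%. In the latter list cathepsin B (EAC00222), a lysosomal protease chosen after its values were seen, read 11.38, 11.25 and 11.67 in the controls and 12.00, 12.37 and 12.32 at EC90, a difference of 0.80 log2 (adjusted p = 0.0519). It was called against the mean of the lower concentrations (0.77, adjusted p = 0.00933).

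Which transcripts set EC90 apart from the lower concentrations was asked without the control arrays. Against the mean of EC10, EC20 and EC50, 73 of 1035 transcripts (7.05%) differed in limma, 43 higher (4.15%) and 30 lower (2.9%) at EC90. Against EC50 alone 34 differed (3.29%). Of the 39 transcripts called against the solvent control, 29 also differed from the mean of the lower concentrations, with the EC90 arrays shared by both comparisons. The other 10 did not pass that test, 6 up- and 4 down-regulated. Against the same control arrays 0 of the 39 were called at EC10, 0 at EC20 and 4 at EC50, where 0.193%, 0.0966% and 0.386% of all transcripts were called. Against the water control, where 8.02% of all transcripts were called (5.6% higher, 2.42% lower), 24 of the 39 were, 11 of the up- and 13 of the down-regulated ones. The 4 called at EC50 were stathmin, EAC01006, P5_E4_T7_1329817 and EAC01087. Without EC50 replicate 2 none of these 4 passed the test at EC50 (limma, adjusted p 0.221 to 0.382). EC10 and EC20 were on another slide than EC90 and EC50, and with the slide as a block 0 transcripts differed from the mean of the lower concentrations.

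Of the 73 transcripts 44 were not called against the solvent control, and those described next were chosen after their values were seen. In muscle and actin, calponin transgelin (EAC00494), an actin-binding protein of smooth muscle in vertebrates, was 1.66 log2 higher at EC90 than at the lower concentrations (standard error 0.33, adjusted p = 0.00129). Its difference from the solvent control was 1.15 (adjusted p = 0.0992). Arp2 (EAC00006), part of the complex that branches actin filaments, was 0.79 higher (adjusted p = 0.00195), and 1 actin (EAC00139) differed by -1.31 (adjusted p = 0.00933). The control arrays of that actin read 14.00, 13.36 and 13.34 and its EC90 arrays 13.19, 12.53 and 11.05, so that the third EC90 array was again the lowest by more than 1 log2. A hemoglobin chain (EAC00421) was 0.65 higher (adjusted p = 0.0178).

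Among the highest differences from the lower concentrations were those of the mads flc-like protein 2 forms EAC01049 (3.36 log2, adjusted p = 0.00933), EAC01066 (3.38, adjusted p = 0.00888) and EAC01116 (3.22, adjusted p = 0.0105) and of Contig135 (3.64, adjusted p = 0.00451). EAC01049 read 15.15, 15.35 and 14.94 at EC90 and 14.28, 12.84 and 13.40 in the solvent control. Within other groups it was much more spread, with 10.12 to 13.25 at EC50 and 6.41 to 10.54 in the water control. Its difference from the solvent control was 1.64 (95% interval -0.47 to 3.75, adjusted p = 0.441), and the solvent control itself was 5.17 above the water control (adjusted p = 0.00537). The largest change of any transcript at EC90, -4.23 for P2_F8_T7_1328946, also chosen after its values were seen, came with EC90 arrays of 10.08, 4.95 and 3.07 and was not called (adjusted p = 0.284).

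Set directly against atrazine EC90, which shares the solvent control and the effect level on reproduction, carbendazim EC90 differed in 29 of 1035 transcripts (2.8%), 11 higher (1.06%) and 18 lower (1.74%). Atrazine EC90 itself gave 0 called transcripts against the solvent control in limma and 91 at an unadjusted p under 0.05. Of the 39 carbendazim transcripts 18 differed from atrazine EC90, 8 of the up- and 10 of the down-regulated ones, with the carbendazim EC90 arrays shared by both comparisons. Aquaporin 1 had the smallest adjusted p (7.03e-05), with 1.79 log2 between the pesticides. Heat shock protein 90 and the intermediate filament transcripts did not pass the test, and for heat shock protein 90 the difference was 0.08 (95% interval -0.68 to 0.83). With the slide as a block 0 transcripts differed between the pesticides, which were on different slides.

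Single arrays decided some of the calls against the solvent control. Of the 25 called transcripts chosen by rule for description, 18 kept their call without EC90 replicate 1, 17 without EC90 replicate 2 and 12 without EC90 replicate 3. Without control replicate 1 the number was 15, without control replicate 2 it was 13, and without control replicate 3 it was 18. Peptidase inhibitor 16, stathmin, EAC01006, EAC01087, P2_A9_T7_1328949, P5_E4_T7_1329817, Ealb_Met_P2_A2_SP6_2090242, Ealb_Met_P1_C3_SP6_2090161 and Contig107 were called in every omission. Aquaporin 1 lost its call without EC90 replicate 3 and without control replicate 1. The calcium-dependent protein kinase lost it without EC90 replicate 3 and without control replicate 2. Dimethyladenosine transferase was called without EC90 replicate 3 or control replicate 3 and in no other omission, the release factor lost its call without EC90 replicate 3, control replicate 1 or control replicate 2, and EAC01098 lost it without control replicate 2. The adjusted p of calls lost in this way lay between 0.0532 and 0.288. With normexp 13 of the 25 kept their call. Those that lost it were the dim transcripts EAC00513, EAC01087, transketolase, Contig107, Ealb_Pest_P3_C5_SP6_2091763 and Ealb_Pest_P9_A6_SP6_2091027, and dimethyladenosine transferase, the C1orf189 homolog, the calcium-dependent protein kinase, Ealb_Met_P6_D6_SP6_2090551, Ealb_Met_P9_D12_SP6_2090774 and P4_5E_T7_1329752.

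The slides limit the comparison with the solvent control. Within the 1 slide that held both groups, 2 EC90 arrays and 1 control array, 6 transcripts were called, 4 of them among the 39. The control there is 1 array, which is assumed to vary like the arrays of the other groups. These 4 were P5_E4_T7_1329817, Ealb_Met_P2_A2_SP6_2090242, Ealb_Met_P2_B7_SP6_2090281 and Ealb_Met_P4_G7_SP6_2090089, of which Ealb_Met_P2_B7_SP6_2090281 and Ealb_Met_P4_G7_SP6_2090089 were chosen after their values were seen. The within-slide changes were -2.33 for peptidase inhibitor 16 (adjusted p = 0.155), -0.98 for stathmin (adjusted p = 0.275) and 1.45 for aquaporin 1 (adjusted p = 0.128).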

How the data were processed

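RNA from the pooled worms of each vessel was labelled with Cy3 and hybridised to 1 one-colour array. The authors deposited the scanner output of Feature Extraction 10.5.1.1, named in the submitters' processing notes, as a processed signal intensity for each spot, from which the software had subtracted background. The deposited value table held the same intensity. Control spots and spots flagged as outliers (838 to 1070 per array here) were left out, the 14 to 15 spots of each transcript were averaged and log2 transformed, and each array was shifted by its median difference from the median array. A transcript was well above background on an array where more than a share of 0.5 of its spots were. A single model in limma 3.58.1 (R 4.3.3) fitted the means of the 14 groups over 42 arrays (28 residual degrees of freedom, median residual SD 0.413 log2), with Benjamini-Hochberg adjustment over 1035 transcripts. The script was tested on simulated arrays. The number of arrays, 3 per group, limits the precision.

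Names of 225 transcripts came from the study's list and were matched to array identifiers through its dimethoate and atrazine ratios, with a largest difference of 0.00131 for the matched sequence and at least 0.0371 for the next. That list was selected on these same arrays, and all members of the gene lists come from it. Of its 225 transcripts 5.78% were called at EC90 against the solvent control, with a median change of 0.13. Named here are the called transcripts with a name, the 6 highest and 6 lowest called ones without a name, all microtubule and intermediate filament transcripts, and 4 that the study names in its text for carbendazim; others are marked as chosen after their values were seen. The members and lists were chosen with earlier results of these data known. "At least" folds compare the mean of the bright group with, per array of the dim group, the higher of its own signal and the lowest signal among transcripts well above background. They hold for the processed signal only and not under normexp. No 2 of the 42 arrays were identical. Alternatives covered scaling, background correction, spots, filter, arrays, the methods' t-test, slide, scan day, replicate number and control.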

Additional observations from a re-analysis of the deposited data

Results flagged for a closer look

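The change at carbendazim EC90 differed from the change at atrazine EC90, tested directly in limma, in 14 of the 38 transcripts named by rule. Over all 1035 transcripts 29 differed (2.8%). All of the 14 named by rule are among those chosen because carbendazim EC90 differed from the solvent control. The same carbendazim arrays enter here, so the count is no separate evidence. Both changes are against the same solvent control arrays, so their difference equals carbendazim minus atrazine. It was above 0 in 5, with 1.25 for dimethyladenosine transferase (EAC00950), 0.94 for short chain dehydrogenase (EAC01022), 1.27 for mads flc-like protein 2 (EAC01098), 1.79 for aquaporin 1 (EAC00867) and 1.68 for Contig107 on the log2 scale. It was below 0 in 9, with -2.34 for peptidase inhibitor 16 (EAC00257), -1.19 for stathmin (EAC00992), -1.19 for mads flc-like protein 2 (EAC01006), -1.46 for the C1orf189 homolog (EAC00580), -0.85 for calcium-dependent protein kinase (EAC00697), -2.24 for P2_A9_T7_1328949, -1.43 for P5_E4_T7_1329817, -1.71 for Ealb_Met_P9_D12_SP6_2090774 and -0.87 for Ealb_Met_P2_A2_SP6_2090242. Their adjusted p lay between 7.03e-05 and 0.0375. The pesticides were on different slides, which cannot be told apart from the treatments here.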

How the results depend on the processing

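Against the solvent control 39 transcripts were called. The count was 141 without the 2 deviating arrays, 129 with array weights, 3 with the slide as a block, 17 with the scan day as a block, 83 against the water control and 88 against the mean of both controls. The methods' t-test gave 179 unadjusted and 2 after adjustment. Chosen after seeing the data, the comparison within 1 slide gave 6, and the slide as a random block without the 2 deviating arrays 135. The deviating arrays, dimethoate EC10 replicate 1 and dimethoate EC20 replicate 2, enter through the shared spread only, and all 25 called transcripts named by rule were called without them. Omitting 1 array gave 17 (without EC90 replicate 3) to 28. The 25 calls without control replicate 1 and the 25 without EC90 replicate 2, and the 20 without control replicate 2, were also under the main count by over 1.5 times. Leaving out arrays at EC50 was also chosen after seeing the data.

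Against EC50 the 34 calls became 52 with only the arrays compared, 69 without the deviating arrays, 156 with array weights, 21 with the slide and 20 with the scan day as a block, 21 within 1 slide, 70 with the slide as a random block without the deviating arrays, and 17 adjusted or 223 unadjusted in the t-test. Omissions gave 4 (without EC50 replicate 3) to 32, with 10 without EC90 replicate 3, 19 without EC50 replicate 2 and 21 without EC90 replicate 2. Against the lower concentrations the 73 became 169, 124, 199, 0, 27 and 118 for only the arrays compared, no deviating arrays, array weights, slide block, scan day block and random block without the deviating arrays, and 42 to 72 with 1 array omitted (42 without EC90 replicate 2, 48 without EC90 replicate 1). Against atrazine EC90 the 29 became 13, 70, 99, 0, 11 and 57 in that order, 5 adjusted or 159 unadjusted in the t-test, and 8 to 26 with 1 array omitted (8 without atrazine replicate 2, 11 without EC90 replicate 3). Scaling to the 75th percentile gave 19, of which 26.3% were higher, against 37.9% in the main scaling.

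With the replicate number as a block 36 transcripts were called against the solvent control. The numbers did not pair the samples, since deviations of same-numbered EC90 and control arrays correlated at -0.14, -0.25 and 0.11.

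Under normexp the change turned to -0.12 for transketolase, -0.044 for Ealb_Pest_P9_A6_SP6_2091027, -0.024 for Ealb_Pest_P3_C5_SP6_2091763 and -0.075 for Contig107. Among transcripts that were not called, tubulin beta-2b (EAC00485) turned to -0.23 against the water control. Tektin 2 (EAC01050) turned to -0.14 with quantile normalization, -0.34 with normexp, -0.054 with the scan day block, -0.49 against the water control and -0.11 against both controls. The intermediate filament transcript EAC00999 turned to -0.016 with quantile normalization, -0.25 with normexp, -0.11 with the slide block and within 1 slide (also without the deviating arrays), -0.62 against the water control and -0.19 against both controls. The glucan endo-beta-glucosidase (EAC00265) turned to -0.19, -0.29 and -0.078 with quantile normalization, normexp and the water control, and larval visceral protein d (EAC01019) to -0.14 with normexp. The causes were not tested. Over the 25 called transcripts named by rule, 438 of their alternative values kept direction and call, 202 kept direction only and 4 turned.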
